A study of Mus musculus with 8 samples.

Results

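The genes of the plasminogen activation system were followed in cultures of primary mouse vascular smooth muscle cells, which give arteries their tone. The 9 genes were taken by name from the deposited expression table, 9 of 27249 genes in all: the activators Plat and Plau, the receptor Plaur, the serpins Serpinb2, Serpine2 and Serpinf1, tissue factor F3, and the Kunitz-type inhibitors Tfpi and Tfpi2. RNA-seq of polyadenylated RNA gave 8 libraries in 4 groups of 2. The groups were THOC5-overexpressing cells in osteogenic medium, GFP-overexpressing cells in osteogenic medium, THOC5-overexpressing cells in growth medium, and GFP-overexpressing cells in growth medium, and libraries are named below by cells and medium. THOC5 is a subunit of the THO complex, which packages messenger RNA and helps export it from the nucleus. The osteogenic medium carried inorganic phosphate for 6 days, as the series' design text gives it, and serves as a culture model of arterial calcification in kidney disease. The labels give the genotype of the GFP cells as WT, so every culture carried an introduced gene, and they name no strain, age or sex of the mice and no vector. The labels do not say whether replicates were separate cultures, so p-values measure the spread between libraries, which may be technical.

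Plasminogen is made mainly in the liver and is cut to plasmin, a protease that dissolves fibrin and degrades matrix proteins. Plat encodes tissue-type plasminogen activator, which works best on fibrin, and Plau encodes urokinase, which works at the cell surface when bound to its receptor, the product of Plaur. Serpins trap these proteases and end their action. In the artery wall, smooth muscle cells make both activators and their inhibitors, and also tissue factor, which starts coagulation by binding factor VII and is held in check by the inhibitor encoded by Tfpi.

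The promoters of Plaur and Serpinf1 are shown because in GFP cells both genes changed with osteogenic medium, in opposite directions. Of the members, 7 had a promoter entry in RefSeq (GRCm38.p6), which runs from 250 bases before to 50 bases after the transcription start. Each sequence reads 5′ to 3′ on the gene's own strand, chr7:24462233-24462532 on the plus strand for Plaur and chr11:75422574-75422873 on the minus strand for Serpinf1. Capitals mark matches to any of 5 motifs searched on both strands, which were the AP-1 site TGANTCA, the GC box GGGCGG, the TATA motif TATAAA, the CArG box and the kappaB site.
Plaur: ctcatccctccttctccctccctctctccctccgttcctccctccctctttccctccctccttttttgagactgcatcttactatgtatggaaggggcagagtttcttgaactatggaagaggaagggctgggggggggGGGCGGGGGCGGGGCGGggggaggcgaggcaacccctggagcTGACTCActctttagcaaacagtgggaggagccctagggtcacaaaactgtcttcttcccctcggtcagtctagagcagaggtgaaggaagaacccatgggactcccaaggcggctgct
Serpinf1: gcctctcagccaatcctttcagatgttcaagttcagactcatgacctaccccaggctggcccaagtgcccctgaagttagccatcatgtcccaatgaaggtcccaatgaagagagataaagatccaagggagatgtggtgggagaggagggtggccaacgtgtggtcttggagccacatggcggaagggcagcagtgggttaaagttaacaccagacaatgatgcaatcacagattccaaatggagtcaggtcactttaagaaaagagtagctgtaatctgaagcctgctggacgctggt
The Plaur promoter held 1 AP-1 match, whose first base lies at -69 from the start, and 3 GC boxes from -111, -105 and -100, the last pair overlapping by 1 base. None of the 5 motifs was found in the Serpinf1 window. Of 32851 promoters of this length, 7.81% held an AP-1 match, 35.7% a GC box, 13.6% a TATA motif, 1.63% a CArG box and 4.51% a kappaB match. The promoter of F3 held AP-1 matches at -146 and -135, and that of Serpine2 held 6 GC boxes. AP-1 matches also lay at -94 from start site 1 and -181 from start site 2 of Serpinb2. Another lay at -77 from start site 3 of Tfpi2.

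The deposited values are read counts divided by a size factor per library, called normalized counts here, and whole reads could be recovered from them. Libraries held 7058681 to 10581042 reads. Thoc5 itself stood at 1406 to 2155 normalized counts in the 4 THOC5 libraries, against 458 to 650 in the 4 GFP libraries, and introduced and endogenous copies were not told apart. All 8 smooth muscle markers were detected, but at very different levels. Acta2 was the highest, at 9489 to 25293 normalized counts, and largely carried their sum. Myh11 was far lower, at 32.9 to 158. Des reached at most 25.9 and Myocd at most 16.4 in any library. Unlike Acta2 and Myh11, both stood higher in GFP cells in osteogenic medium, though neither passed by limma. Des had 25.9 and 18.8 normalized counts in GFP osteogenic libraries against 9.32 and 10.6 in GFP growth libraries. Myocd had 16.4 and 15.2 against 10.5 and 14.6. Summed over 8 of 8 smooth muscle markers, the GFP libraries in osteogenic medium held 11925 and 13801 normalized counts, against 24495 to 31012 in the other 6 libraries. All 9 adventitial fibroblast markers had a row in the table. Their sum was 7025 and 9763 in GFP cells in osteogenic medium and 19658 to 24602 in the other libraries. It was carried largely by Dcn, at 3774 to 16100. Col14a1 at 368 to 3774 and Pdgfra at 889 to 2485 were also abundant, while Dpt and Pi16 averaged under 3. Ly6a overlapped between media in GFP cells, with 1934 and 2618 normalized counts in osteogenic medium against 2028 and 1993 in growth medium. In THOC5 cells Ly6a passed by limma as higher in osteogenic medium. Of 11 macrophage markers 9 were analysed, with sums of 703 and 684 in GFP cells in osteogenic medium against 950 to 1234 elsewhere, and Adgre1, Ptprc, Itgam, Fcer1g and Mrc1 averaged under 3. The macrophage sum was carried largely by Cd14, which fell with Lyz2 in GFP cells, whereas Cd68 rose, with 246 and 244 normalized counts in GFP osteogenic libraries against 167 and 165 in GFP growth libraries. Of 9 endothelial markers 6 were analysed, with sums of 56.2 and 37.6 against 75.8 to 121.6 elsewhere, and Tie1 and Erg averaged under 3. The endothelial sum was carried largely by Vwf, which fell, whereas the median log2 change of the 4 endothelial markers tested was 0.52. Kdr did not pass in GFP cells and went the other way, with 25.1 and 20.6 normalized counts in GFP osteogenic libraries against 2.87 to 9.32 in the other 6. In GFP cells 6 of 8 smooth muscle markers and 4 of 9 fibroblast markers fell with osteogenic medium by limma at an adjusted p under 0.05, where 10.6% of all genes fell. Of 7 macrophage markers tested 1 rose and 2 fell, and of 4 endothelial markers 1 fell. These sums moved in the same libraries as the members that changed, and their part in the results was not tested. In such bulk cultures, fewer cells of a type and less RNA per cell cannot be told apart.

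**Figure D1:**
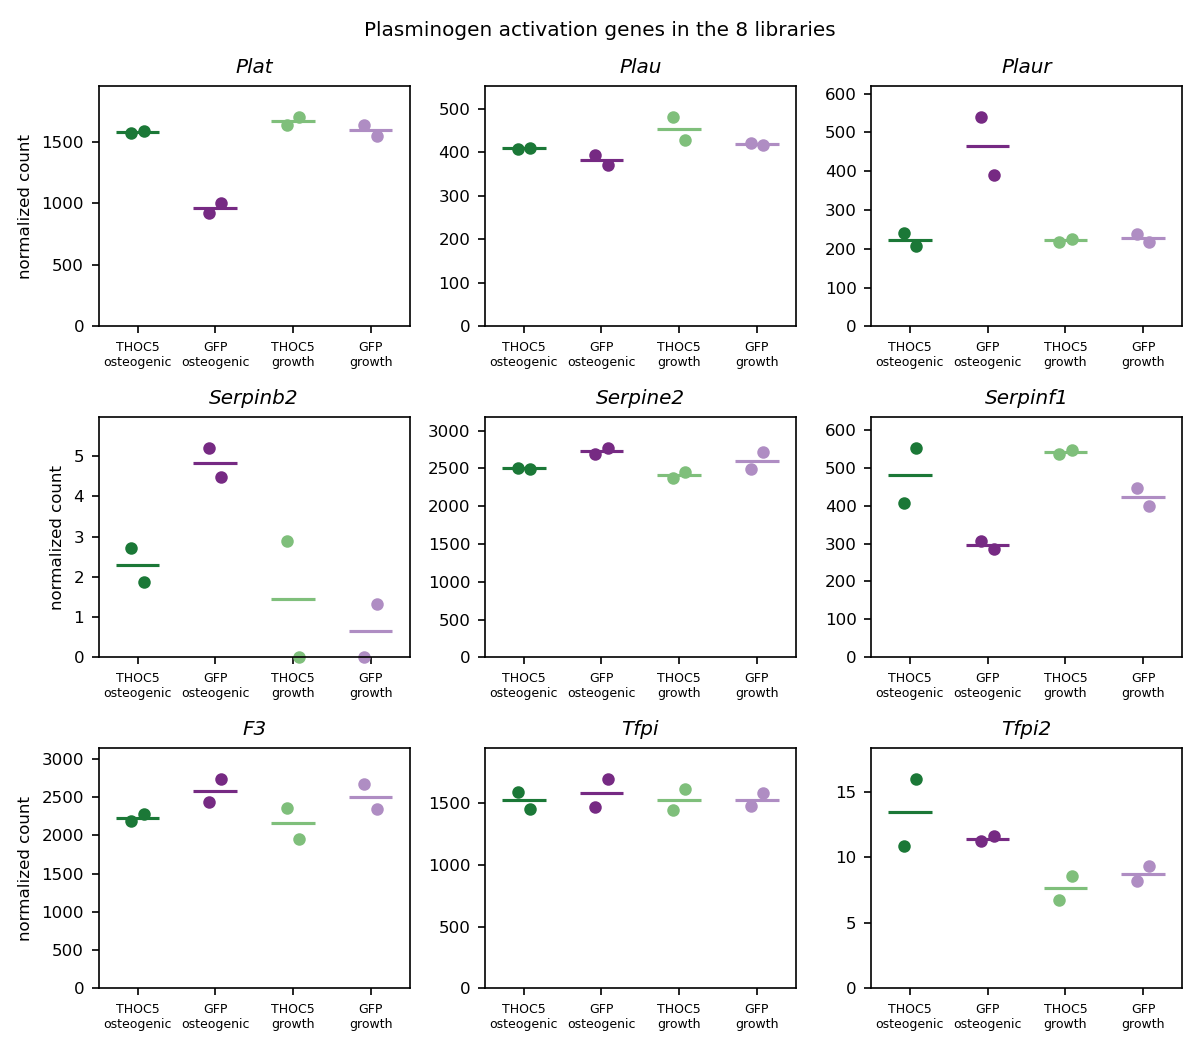
Normalized count (vertical axis, from 0) of the 9 genes in each library, with 2 points per group and a bar at their mean, for THOC5 and GFP cells in osteogenic medium and in growth medium. In the panels for Plat, Plaur and Serpinf1 the GFP osteogenic points lie apart from those of the other 3 groups, while Tfpi stays between 1441 and 1693 in all 8 libraries.

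In GFP cells, osteogenic medium changed the activator Plat, the receptor Plaur and the serpin Serpinf1, and left the other members without a call. By limma across all genes, with Benjamini-Hochberg adjustment and a threshold of 0.05, 1 member was higher and 2 were lower of 9 tested. Over all 22575 genes tested, 20.8% passed in this comparison, 10.3% higher and 10.6% lower, against which the 3 of 9 is to be read. The median log2 change of the members was 0.05, beside 0.00 over all genes tested. With libraries scaled to their total reads, which moved the median of all genes by 0.127, 1 member was higher and 1 lower. The same GFP libraries in osteogenic medium served the comparison with THOC5 cells given further on.

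Plat (ENSMUSG00000031538.6, chromosome 8, 22757727 to 22782844, GRCm38) had 1568 and 1590 normalized counts in the THOC5 osteogenic libraries, 924 and 1004 in the GFP osteogenic libraries, 1638 and 1698 in the THOC5 growth libraries, and 1633 and 1550 in the GFP growth libraries. The GFP osteogenic libraries were the lowest of the 8, and the other 6 lay between 1550 and 1698. In GFP cells Plat averaged 964 ± 57.1 in osteogenic medium and 1591 ± 58.5 in growth medium (SD, n = 2 each). That is 1.65-fold lower (log2 -0.72 ± 0.08 SE, limma adjusted p = 1.20e-04), and it passed under every alternative run, with adjusted p of 2.96e-10 to 0.00663. In THOC5 cells Plat averaged 1579 ± 16.0 in osteogenic medium and 1668 ± 42.2 in growth medium, a log2 change of -0.08 with a 95% interval of -0.26 to 0.10 (limma adjusted p = 0.937).

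Plau (ENSMUSG00000021822.3, chromosome 14, 20836660 to 20843385) had 408 and 409 normalized counts in the THOC5 osteogenic libraries, 394 and 369 in the GFP osteogenic libraries, 480 and 428 in the THOC5 growth libraries, and 422 and 417 in the GFP growth libraries. All 8 values stayed within 1.3 times of each other, with the GFP osteogenic libraries the lowest. The log2 change with osteogenic medium was -0.14 ± 0.10 in GFP cells (95% interval -0.35 to 0.07, limma adjusted p = 0.371). With libraries scaled to their total reads the change in GFP cells was 0.01, so no direction is given.

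Plaur (ENSMUSG00000046223.10, chromosome 7, 24462484 to 24475968), whose promoter is printed above, had 240 and 207 normalized counts in the THOC5 osteogenic libraries, 539 and 391 in the GFP osteogenic libraries, 218 and 224 in the THOC5 growth libraries, and 239 and 218 in the GFP growth libraries. Both GFP osteogenic libraries stood above the other 6, which lay between 207 and 240, and they also differed most from each other. Plaur averaged 465 ± 105 in GFP cells in osteogenic medium and 228 ± 14.8 in GFP cells in growth medium (SD, n = 2 each). This rise of 2.01-fold (log2 1.00 ± 0.15, limma adjusted p = 7.26e-04) passed under every alternative, with adjusted p of 1.13e-06 to 0.0139. Without GFP osteogenic replicate 1 the log2 change was 0.77, the lowest with any library left out. In THOC5 cells the change was 0.01, with a 95% interval of -0.31 to 0.34 (limma adjusted p = 1).

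Serpinf1 (ENSMUSG00000000753.15, chromosome 11, 75409769 to 75422701) encodes pigment epithelium-derived factor, a secreted serpin that does not inhibit proteases and is known to restrain vessel growth. It had 408 and 551 normalized counts in the THOC5 osteogenic libraries, 308 and 286 in the GFP osteogenic libraries, 536 and 547 in the THOC5 growth libraries, and 448 and 400 in the GFP growth libraries. The GFP osteogenic libraries were the lowest of the 8, and the THOC5 osteogenic libraries lay far apart, one near the GFP growth libraries and the other near the THOC5 growth libraries. In GFP cells it averaged 297 ± 15.3 in osteogenic medium and 424 ± 33.5 in growth medium, 1.42-fold lower (log2 -0.51 ± 0.13, limma adjusted p = 0.0185). That call was lost without GFP osteogenic replicate 1 (adjusted p = 0.0780), without GFP osteogenic replicate 2 (0.111), without GFP growth replicate 1 (0.109), with libraries scaled to their totals (0.0619) and with any gene above 0 tested (0.0550), over a range of 0.00774 to 0.111.

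Serpine2 (ENSMUSG00000026249.10, chromosome 1, 79794197 to 79861180) encodes protease nexin-1, a cell-bound inhibitor of thrombin, urokinase and plasmin. It had 2508 and 2497 normalized counts in the THOC5 osteogenic libraries, 2691 and 2766 in the GFP osteogenic libraries, 2370 and 2449 in the THOC5 growth libraries, and 2487 and 2720 in the GFP growth libraries. The 8 values lay within 1.17 times of each other, and the log2 change in GFP cells was 0.07 (95% interval -0.10 to 0.24, limma adjusted p = 0.600).

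Serpinb2 (ENSMUSG00000062345.10, chromosome 1, 107511423 to 107535478), which encodes plasminogen activator inhibitor 2 and is typical of macrophages and keratinocytes, was close to the detection limit, with 20 reads over all libraries. It had 3 and 2 reads in the THOC5 osteogenic libraries, 6 and 5 in the GFP osteogenic libraries, 3 and 0 in the THOC5 growth libraries, and 0 and 1 in the GFP growth libraries. The GFP pairs did not overlap, and the ratio of their summed reads, per size factor, was 7.79 with an exact 95% interval of 1.13 to 335.3, which covers counting error only. Serpinb2 did not pass in limma (adjusted p = 0.0811). It passed with a pseudocount of 5 (adjusted p = 0.0444) and without THOC5 growth replicate 1 (0.0499) or 2 (0.0469), over a range of 0.0444 to 0.324. Its exons share 291 bases with those of Serpinb10 on the same strand, which averaged 0.348 normalized counts.

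Tissue factor, F3 (ENSMUSG00000028128.13, chromosome 3, 121723537 to 121735048), had 2185 and 2279 normalized counts in the THOC5 osteogenic libraries, 2440 and 2733 in the GFP osteogenic libraries, 2356 and 1959 in the THOC5 growth libraries, and 2677 and 2340 in the GFP growth libraries. The media overlapped in both kinds of cells, while both THOC5 osteogenic libraries lay below both GFP osteogenic libraries. The log2 change in GFP cells was 0.05 (95% interval -0.19 to 0.28, limma adjusted p = 0.825).

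Tfpi (ENSMUSG00000027082.15, chromosome 2, 84432855 to 84476775) encodes the inhibitor of the tissue factor and factor VII complex. It had 1590 and 1454 normalized counts in the THOC5 osteogenic libraries, 1465 and 1693 in the GFP osteogenic libraries, 1441 and 1618 in the THOC5 growth libraries, and 1474 and 1585 in the GFP growth libraries. All groups overlapped, and the log2 change in GFP cells was 0.04 (95% interval -0.17 to 0.26, limma adjusted p = 0.817). Tfpi2 (ENSMUSG00000029664.10, chromosome 6, 3962595 to 3988919), a matrix-bound inhibitor of plasmin, was low, with 10.9 and 16.0 normalized counts in the THOC5 osteogenic libraries, 11.2 and 11.6 in the GFP osteogenic libraries, 6.76 and 8.60 in the THOC5 growth libraries, and 8.16 and 9.31 in the GFP growth libraries. The osteogenic values were above the growth values in each kind of cell, but on 85 reads in all the changes did not pass, with a log2 change in GFP cells of 0.36 (95% interval -0.50 to 1.22, limma adjusted p = 0.589).

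The order of the levels was compared per kb of exon, using the GENCODE M21 exon length of each gene, since the authors' annotation is not given in the sources used here. F3 was the highest in every group, at 883 normalized counts per kb in THOC5 cells in osteogenic medium, 1024 in GFP cells in osteogenic medium, 854 in THOC5 cells in growth medium and 993 in GFP cells in growth medium. Serpine2 followed, at 291 to 329 over the group means, and Tfpi at 279 to 289, and these neighbours overlapped in their libraries in THOC5 cells in growth medium. Plat stood at 253, 154.5, 267 and 255 per kb in the same order of groups. Its libraries overlapped those of Tfpi in THOC5 cells in growth medium and lay below them in the other 3 groups. Plau at 173, 161, 192 and 177 and Serpinf1 at 203, 126, 230 and 180 mostly came next. In GFP cells in osteogenic medium, however, the mean of Plau lay above that of Plat. Their libraries overlapped there, at 156 to 167 per kb for Plau and 148 to 161 for Plat. Plau and Serpinf1 overlapped in GFP cells in growth medium. Plaur stood at 85.5, 178, 84.6 and 87.3 per kb in that order. It was the lowest of the 7 well-measured members in 3 groups, whereas in GFP cells in osteogenic medium its mean lay above those of Plau (161), Plat (154.5) and Serpinf1 (126). There, the Plaur libraries at 149 and 206 per kb overlapped those of Plau and Plat and lay above both Serpinf1 libraries. Tfpi2 at 4.39 to 7.69 and Serpinb2 at 0.283 to 2.06 per kb were the lowest in every group.

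**Figure D2:**
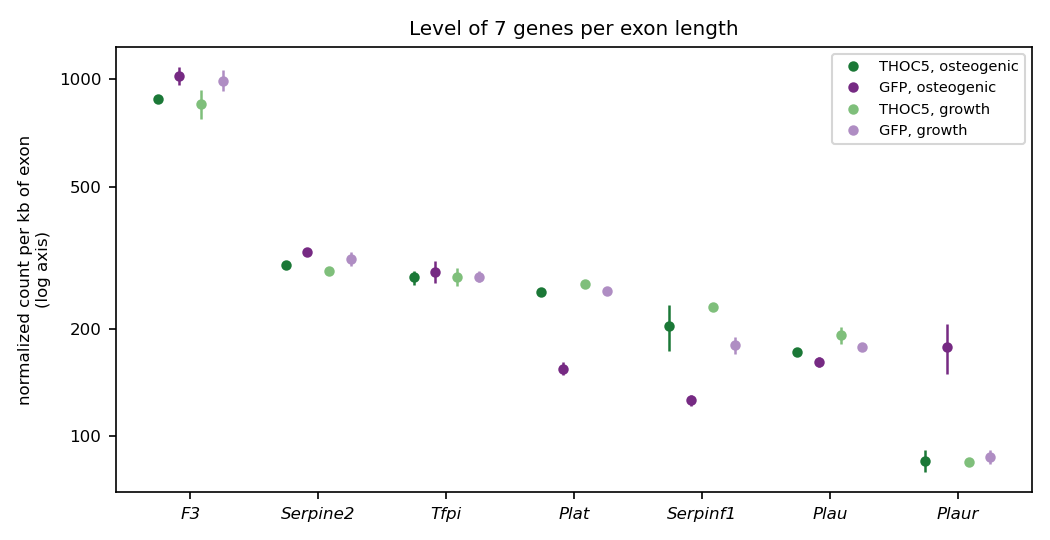
Normalized count per kb of exon (vertical log axis) of the 7 well-measured genes, with a point at each group's mean and a line from its lower to its higher library, for THOC5 and GFP cells in osteogenic and growth medium. F3 lies highest throughout, and Plaur lies lowest in 3 groups but reaches 178 in GFP cells in osteogenic medium, level with Plau at 161.

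In THOC5 cells, osteogenic medium changed none of the 9 members by limma. None had an unadjusted p under 0.05 either, and edgeR and DESeq2 on the recovered reads also called 0. Over all genes, 0.54% passed in this comparison. The intervals bound what may have been missed: for Serpinf1 the log2 change was -0.19 (95% interval -0.48 to 0.10). They were wide for the low genes, at 0.72 for Tfpi2 (-0.14 to 1.58) and 0.73 for Serpinb2 (-0.84 to 2.30). Large changes of these low genes are therefore not excluded. The test of the difference between both responses passed for Plat and Plaur, 1 higher and 1 lower of 9 members. In that test 9.22% of all genes passed, 5.3% higher and 3.92% lower. For Plat the THOC5 response minus the GFP response was 0.64 ± 0.11 on the log2 scale (limma adjusted p = 0.00629), and the call was lost without THOC5 osteogenic replicate 2 (adjusted p = 0.0657, range 3.00e-04 to 0.0657). For Plaur it was -0.99 ± 0.21 (adjusted p = 0.0141). The Plaur call was lost without THOC5 osteogenic replicate 1 (adjusted p = 0.0515) or 2 (0.116), GFP osteogenic replicate 1 (0.0607) or THOC5 growth replicate 1 (0.0552), and with any gene above 0 tested (0.0574), over a range of 0.00266 to 0.116. For Serpinf1 the difference was 0.32 ± 0.19 (adjusted p = 0.349), so its responses in both kinds of cells were not shown to differ.

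The effect of THOC5 was read in each medium. In osteogenic medium 2 members were higher and 1 was lower in THOC5 cells, beside 22.0% of all genes that passed, 11.3% higher and 10.7% lower. Plat averaged 1579 ± 16.0 in THOC5 cells and 964 ± 57.1 in GFP cells, 1.64-fold higher (log2 0.71 ± 0.08, limma adjusted p = 1.21e-04). Plaur averaged 224 ± 22.9 in THOC5 cells and 465 ± 105 in GFP cells, 2.05-fold lower (log2 -1.04 ± 0.15, adjusted p = 5.25e-04). Serpinf1 averaged 480 ± 101 in THOC5 cells and 297 ± 15.3 in GFP cells, 1.60-fold higher (log2 0.67 ± 0.13, adjusted p = 0.00386). Without THOC5 osteogenic replicate 2 the Serpinf1 value was 0.46 and did not pass (adjusted p = 0.0584, range 2.25e-04 to 0.0584). This comparison uses the same GFP osteogenic libraries as the GFP response, so the opposite signs of the same 3 genes are no separate evidence. The other members did not pass, with log2 differences of 0.10 for Plau (95% interval -0.11 to 0.31), -0.12 for Serpine2 (-0.30 to 0.05), -0.21 for F3 (-0.45 to 0.03), -0.05 for Tfpi (-0.27 to 0.17) and 0.19 for Tfpi2 (-0.67 to 1.05). Serpinb2 stood at 2.73 and 1.88 normalized counts in THOC5 cells and 5.19 and 4.47 in GFP cells, with the THOC5 values at or under the level of 3 reads. Scaling to library totals moved the median of all genes by -0.163 here, and Serpine2 and F3 then passed as lower, at -0.30 (adjusted p = 0.0187, range 0.0187 to 0.536) and -0.39 (adjusted p = 0.0183, range 0.0183 to 0.567), so that 2 members were higher and 3 lower.

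In growth medium 0 of 9 members passed by limma, edgeR or DESeq2, where 0.00443% of all genes passed by limma. Serpinf1 had an unadjusted limma p under 0.05, with 536 and 547 normalized counts in THOC5 cells against 448 and 400 in GFP cells (log2 0.36, 95% interval 0.06 to 0.65, limma adjusted p = 0.906). Its 2 THOC5 libraries lay above both GFP libraries. THOC5 cells in osteogenic medium were also set against GFP cells in growth medium, where 0.359% of all genes passed by limma. None of the members passed there by limma, edgeR or DESeq2, and 0 had an unadjusted limma p under 0.05. The log2 difference was -0.01 for Plat (95% interval -0.19 to 0.17), -0.03 for Plaur (-0.36 to 0.29) and 0.16 for Serpinf1 (-0.13 to 0.46). These intervals exclude changes as large as those of Plat and Plaur in GFP cells, and for Serpinf1 they exclude a fall of 0.51.

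**Figure D3:**
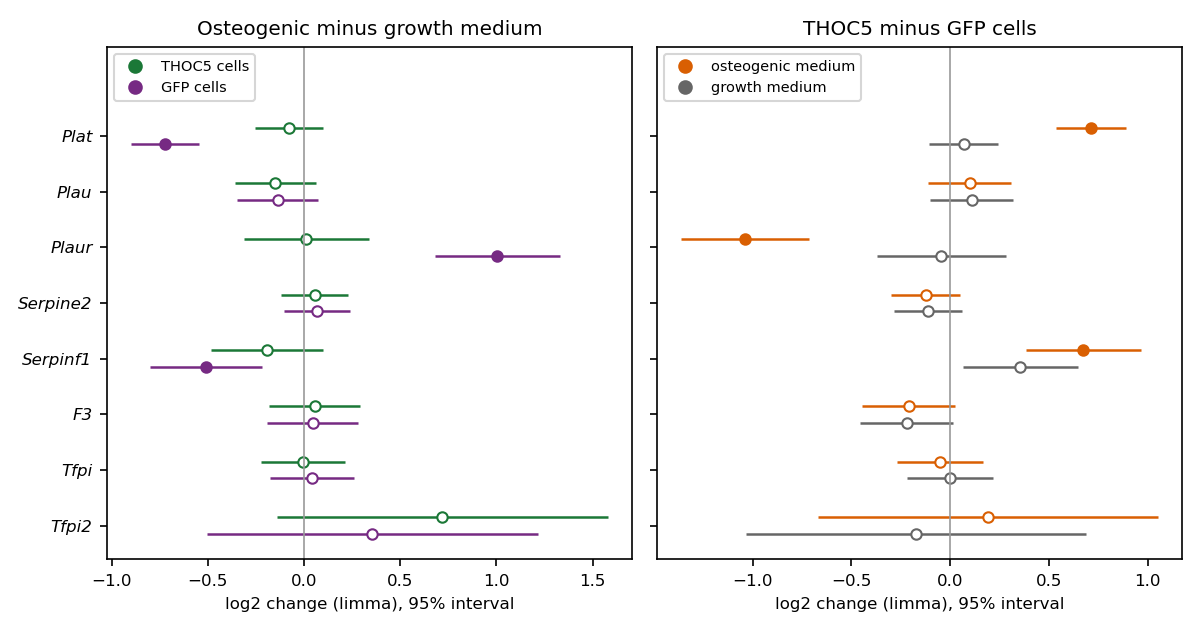
Log2 change with its 95% interval (horizontal axis) for 8 members, Serpinb2 left out for its 20 reads. On the left are osteogenic minus growth medium in THOC5 cells and in GFP cells, on the right THOC5 minus GFP cells in osteogenic and in growth medium, and filled points passed the test. Filled points are Plat, Plaur and Serpinf1 in GFP cells and in osteogenic medium, and the widest intervals are those of Tfpi2.

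The authors' deposited table gives, for GFP cells in osteogenic against growth medium, a log2 fold change of -0.72 for Plat (adjusted p = 2.84e-10), 1.02 for Plaur (1.28e-06) and -0.51 for Serpinf1 (0.0114). For THOC5 against GFP cells in osteogenic medium the authors' deposited table gives 0.71 for Plat (3.60e-10), -1.06 for Plaur (2.72e-07) and 0.69 for Serpinf1 (2.39e-04). In the authors' deposited table the adjusted p of each of these genes is 0.999 in THOC5 against GFP cells in growth medium.

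Other genes of the pathway were taken from a list of 45 receptors, clearance proteins, inhibitors, coagulation partners and downstream proteases, of which 39 were tested. In GFP cells 4 rose and 15 fell in osteogenic medium, beside 10.3% and 10.6% of all genes, with a median log2 change of -0.32 beside 0.00 for all genes, and with libraries scaled to their totals 6 rose and 13 fell. Among proteins that clear activators or partner their receptor, 5 of 7 fell in GFP cells, and among growth factors and proteases activated downstream 4 of 6 fell. The other roles were mixed or small in GFP cells. Of the other inhibitors 1 rose and 3 fell of 11, and of the coagulation partners 2 rose and 2 fell of 7. Of the plasminogen binding sites 1 rose and 0 fell of 5, and of the protease-activated receptors 1 fell of 3. In THOC5 cells 0 of the 39 passed by limma, edgeR or DESeq2, where 0.54% of all genes passed by limma. An unadjusted limma p under 0.05 was found for 5 of them. In THOC5 against GFP cells in osteogenic medium 15 were higher and 4 lower, beside 11.3% and 10.7% of all genes. The test of the difference between responses passed for 13 higher and 2 lower, beside 5.3% and 3.92% of all genes. These 15 calls became 4 without THOC5 osteogenic replicate 2, 8 without THOC5 osteogenic replicate 1 and 8 without GFP osteogenic replicate 1.

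By the smallest p in GFP cells, the named genes of the list were Lrp1, Mrc2, A2m, Procr, Pros1 and Mmp14. Lrp1, the receptor that takes up complexes of activator and serpin, had 16514 and 20906 normalized counts in GFP cells in osteogenic medium, against 53458 and 54208 in GFP cells in growth medium (2.90-fold lower, limma adjusted p = 2.12e-05). Mrc2, a collagen receptor that associates with the urokinase receptor, was 1.84-fold lower (adjusted p = 3.27e-05). A2m encodes alpha-2-macroglobulin, which traps many proteases including plasmin, and was 38.9-fold lower, at 8.65 and 19.7 against 435 and 691 (adjusted p = 8.05e-06). Mmp14, a membrane-bound matrix metalloproteinase, was 1.95-fold lower (adjusted p = 2.83e-05). The anticoagulant cofactor gene Pros1 was 2.09-fold lower (adjusted p = 2.62e-05). Procr, the endothelial protein C receptor, went the other way, with 483 and 414 normalized counts in GFP osteogenic libraries against 210 and 225 in GFP cells in growth medium (2.06-fold higher, adjusted p = 1.05e-04). These calls in GFP cells held under all the alternatives run.

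**Figure D4:**
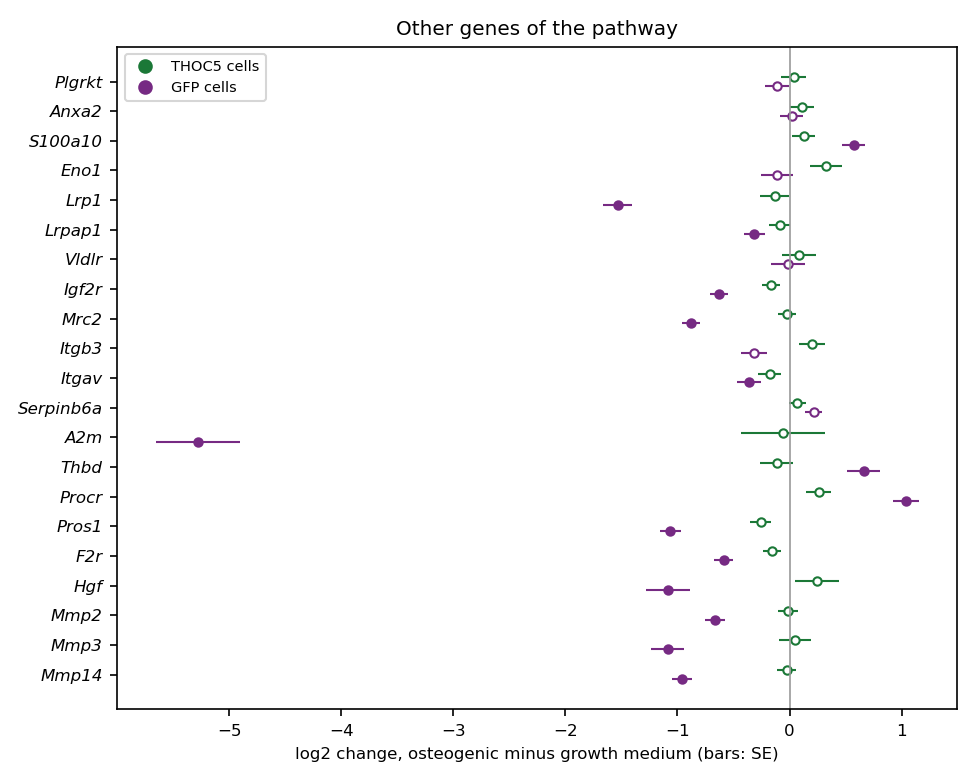
Log2 change in osteogenic minus growth medium with its SE (horizontal axis) for pathway genes averaging at least 50 normalized counts, 1 of them not shown, in THOC5 cells and in GFP cells, where filled points passed the test. A2m lies farthest left in GFP cells, Procr farthest right, and no point of the THOC5 cells is filled.

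The table lists 43 serpin genes, members included, of which 36 were tested. In GFP cells 7 rose and 9 fell in osteogenic medium, beside 10.3% and 10.6% of all genes. DESeq2 on the recovered reads called 2 higher and 8 lower, where it called 17% of all genes. With 1 library left out 9 to 15 serpin genes passed, with 9 without GFP osteogenic replicate 1 and 10 without GFP growth replicate 1. In THOC5 cells 0 passed by limma, edgeR or DESeq2, where 0.54% of all genes passed by limma. An unadjusted limma p under 0.05 was found for 4 serpin genes. Serpina3 genes were among those that fell, led by Serpina3n (10.4-fold, adjusted p = 1.73e-05), Serpina3i (19.0-fold, adjusted p = 2.23e-05) and Serpina3g (7.40-fold, adjusted p = 9.41e-05). The Serpina3i value rests on 1.73 and 5.37 normalized counts in GFP osteogenic libraries, the first under the level of 3 reads, and its log2 change of -4.25 became -3.64 without GFP osteogenic replicate 1 and -4.86 without replicate 2. The Serpina3 genes and the Serpinb9 genes are close copies within their clusters, so reads may have been split between them.

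Likeness of pattern was described by Pearson's r of log2 values over the 8 libraries, among genes averaging at least 50 normalized counts. Each r was picked as among the highest of 10368 genes searched over only 8 points, so the r values carry no test. For Plat, Plaur and Serpinf1 the points also share the split between the GFP osteogenic libraries and the rest. Plat was most like Gpc6, Ripor3 and Sfxn3 (r = 0.999 each). Plaur was most like Farsb (0.997), Psmc4 (0.993) and Fxr2 (0.992), and Serpinf1 most like Lpcat1 (0.983), Pdia5 (0.980) and Rras (0.978). The members without a call reached their highest r with Gemin8 for Plau (0.991), Mis18a for Serpine2 (0.974), Ccdc66 for F3 (0.960) and Rexo5 for Tfpi (0.932).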

How the data were processed

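Per the labels' protocols, libraries came from polyadenylated RNA with a TruSeq RNA kit, which does not mark strand. Per the submitters' processing notes FastQC, Bowtie2, MACS2, SAMtools and mm10 are named, without roles. The counting tool is not given in the sources used here, nor is the annotation. The deposited table holds, per gene and library, a signal that is a read count divided by a size factor, as tested on the values: 100% came out whole within 1e-06 after multiplication. The authors' deposited table also gives log2 fold changes, their statistic (a score) and p-values for 4 comparisons, per the file headers. Columns were matched to samples by the label's description, and 0 went unused.

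limma 3.58.1 (R 4.3.3, trend) was fitted to log2(normalized count + 1) for 22575 genes that reached 1 normalized count in 2 or more libraries. The fit held 8 libraries in 4 groups, with 4 residual degrees of freedom, and 6 contrasts and Benjamini-Hochberg adjustment per contrast. Fold changes on this scale understate low genes. A count of 0 allows up to 3 reads, or 2.59 to 3.99 normalized counts. Intervals on reads cover counting error only. Alternatives were edgeR 4.0.16 and DESeq2 1.42.0 on the recovered reads, other scalings, pseudocounts and filters, a replicate block, the groups compared alone, and each library left out. On simulated data limma recovered 63.0% of 1.5-fold and 95.0% of 2-fold changes for the GFP response. For THOC5 against GFP cells in osteogenic medium it recovered 52.0% and 91.0%. False calls numbered 14 and 3. Only genes averaging at least 50 normalized counts in GFP growth libraries were changed, so the rates do not cover Serpinb2 or Tfpi2. Each fold was given to 100 genes, of 21011 and 20975 tested, a far smaller share than passed in the real data.

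The members, lists and tests were chosen with earlier results of these data known. Named pathway genes were the 6 with the smallest p in GFP cells among those averaging at least 50 normalized counts, and 3 serpins by the same rule. Coordinates come from GENCODE M21 (GRCm38) and promoters from RefSeq GRCm38.p6. The values of 1 listed gene are not reported here, though the list counts include it.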

Additional observations from a re-analysis of the deposited data

Results flagged for a closer look

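Plat and Plaur were singled out because the osteogenic response differed between THOC5 and GFP cells by limma's test of the difference itself. Neither call held under every alternative, as given above. For Plat the THOC5 response was higher than the GFP response by 0.64 on the log2 scale, with a change of -0.08 in THOC5 cells and -0.72 in GFP cells. For Plaur the difference was -0.99, with a change of 0.01 in THOC5 cells and 1.00 in GFP cells. With 1 library left out the difference ranged from 0.58 to 0.70 for Plat and from -1.22 to -0.76 for Plaur. Groups of 2 libraries are too small for a test of a single library standing apart.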

How the results depend on the processing

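In GFP cells Plat and Plaur kept their direction and their call under all 18 alternatives, and 2 to 4 members passed with 1 library left out. In THOC5 against GFP cells in osteogenic medium 3 members passed, 5 with libraries scaled to their totals, and 2 to 3 with 1 library left out. The test of the difference between responses called 2 members, 1 with any value above 0 tested, and 0 to 2 with 1 library left out. The causes were not tested. No member passed under any alternative in THOC5 cells, in growth medium, or between THOC5 osteogenic and GFP growth cells.

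Signs were followed for all members in the GFP response and between cells in osteogenic medium. In the other comparisons only Plat, Plaur and Serpinf1 were followed. Among the values followed, signs turned only for those that passed neither way. Scaled to totals, Plau was at 0.00867 in GFP cells and at -0.0780 between cells in osteogenic medium. With 1 library left out, the GFP response ranged from -0.0518 to 0.14 for F3 and from -0.0610 to 0.15 for Tfpi. The THOC5 response ranged from -0.0927 to 0.12 for Plaur and from -0.41 to 0.0251 for Serpinf1. THOC5 against GFP cells ranged from -0.11 to 0.0215 for Plaur in growth medium, and in osteogenic medium from -0.15 to 0.0536 for Tfpi and from -0.0628 to 0.45 for Tfpi2. THOC5 osteogenic against GFP growth cells ranged from -0.0484 to 0.0266 for Plat, from -0.14 to 0.0717 for Plaur and from -0.0524 to 0.38 for Serpinf1. Where 1 library of a group was left, it was assumed to vary like the other groups.

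Whether replicate numbers pair the libraries was not settled. Correlations of same-numbered deviations ran from -0.188 to 0.402 over the 6 pairs of groups. The highest was between THOC5 and GFP cells in growth medium, over 10655 genes. A replicate block kept the counts of 3, 3 and 2 members and changed no other call, which cannot show that pairing was absent. For THOC5 osteogenic against GFP growth cells, where the numbers went against each other, 81 genes passed, 77 with the block and 87 with crossed numbers, a fit chosen after seeing the data. Depth limited Serpinb2 and Tfpi2, with 20 and 85 reads in all.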
